A study of Mus musculus with 8 samples.

Results

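The genes described here encode the subunits of the transcription factor NF-kB and the proteins that hold it in check. They are the subunit genes Nfkb1, Nfkb2, Rel, Rela and Relb, the IkB family genes Bcl3, Nfkbia and Nfkbie, and the feedback gene Tnfaip3 and adaptor gene Traf1. They were found through the RefSeq accession that the array design gives for each probe, which yielded all 10 of the 10 genes among 21154 genes with a named probe. Expression was measured on 8 one-colour arrays of RNA from mouse CD4 single-positive thymocytes, lysed directly after isolation. The wild-type groups were conventional cells low in CD25 (WT Tconv) and regulatory T cells carrying Foxp3 (WT Treg). Treg precursors of the Nr4a-TKO genotype (Nr4a-TKO preTreg) were gated on high Nr4a3, GITR and CD25. Treg precursors of the Foxp3-KO genotype (Foxp3-KO preTreg) were gated on a Foxp3 reporter and high CD25. Each group had 2 biological replicates. No wild-type precursors were among the groups, so genotype and sort gate changed together between either precursor group and the wild-type groups. Both also differed between the 2 precursor groups. The strain and age of the mice and how the alleles were built are not given in these sources.

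NF-kB acts as a dimer of Rel family proteins. In a resting cell inhibitors of the IkB family keep the dimers in the cytoplasm, and signals from the T cell receptor or from TNF family receptors free them by way of the IKK kinases. The dimers then switch on many genes, among them those for their own subunits, for the inhibitors and for proteins that damp the upstream signal, which closes a negative feedback loop. In the thymus, NF-kB activity is known to be needed for the formation of regulatory T cells.

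The promoters of these genes are shown first. RefSeq windows of 300 bases, from 250 bases before the annotated start, were at hand for 8 of the 10 genes (build GRCm38.p6). Nfkb1 and Relb had none. The windows were searched on both strands for the kappa B consensus, the known binding motif of NF-kB, in the form that takes A or T at the sixth of 10 bases. A match was found for 6 of the 8 genes, Nfkb2, Rel, Nfkbia, Nfkbie, Bcl3 and Tnfaip3, against 5.14% of all 27025 genes with a window (4.51% of 32851 windows). With C or T at the sixth base, 5 of the 8 genes and 6.55% of all genes had a match, the genes being the same but for Nfkbie. A narrower form, with A at the fourth base and T at the sixth, the seventh and the eighth, matched Nfkb2 and Nfkbia and 0.466% of all genes. A match describes letters in the window and was not measured as binding. The members were chosen as NF-kB genes, and such genes are known targets of NF-kB, so these shares are no independent result. The windows below are 3 that hold a match, of genes that were higher in every group than in WT Tconv, then that of Traf1, a gene with the same pattern and no match, and that of Rela, which differed least among the tested members. Each is written in the direction of its gene, with the matches in capitals. They lie at chr19:46304487-46304786 (plus strand), chr12:55492598-55492897 (minus strand), chr7:19822706-19823005 (minus strand), chr2:34961723-34962022 (minus strand) and chr19:5637291-5637590 (plus strand).
Nfkb2: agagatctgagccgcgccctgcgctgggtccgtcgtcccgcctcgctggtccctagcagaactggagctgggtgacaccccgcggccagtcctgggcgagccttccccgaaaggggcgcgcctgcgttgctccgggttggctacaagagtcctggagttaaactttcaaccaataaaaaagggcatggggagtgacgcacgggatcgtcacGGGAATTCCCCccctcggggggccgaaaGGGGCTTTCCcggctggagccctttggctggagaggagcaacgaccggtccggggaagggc
Nfkbia: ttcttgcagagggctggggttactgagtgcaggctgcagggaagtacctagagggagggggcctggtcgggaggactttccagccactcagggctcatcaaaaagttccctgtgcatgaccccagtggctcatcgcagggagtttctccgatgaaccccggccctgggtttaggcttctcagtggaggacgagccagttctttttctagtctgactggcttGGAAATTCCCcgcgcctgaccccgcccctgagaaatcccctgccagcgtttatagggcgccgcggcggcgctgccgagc
Bcl3: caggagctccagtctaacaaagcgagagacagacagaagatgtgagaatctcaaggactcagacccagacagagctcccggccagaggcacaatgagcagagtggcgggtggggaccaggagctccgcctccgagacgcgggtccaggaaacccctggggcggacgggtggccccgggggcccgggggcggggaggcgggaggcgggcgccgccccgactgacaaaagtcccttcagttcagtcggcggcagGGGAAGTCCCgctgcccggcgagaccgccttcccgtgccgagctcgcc
Traf1: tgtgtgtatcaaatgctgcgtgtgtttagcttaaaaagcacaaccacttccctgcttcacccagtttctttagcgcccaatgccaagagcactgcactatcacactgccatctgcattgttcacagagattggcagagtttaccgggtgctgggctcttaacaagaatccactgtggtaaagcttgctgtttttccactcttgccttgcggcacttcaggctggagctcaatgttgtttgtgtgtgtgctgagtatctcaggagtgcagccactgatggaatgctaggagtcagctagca
Rela: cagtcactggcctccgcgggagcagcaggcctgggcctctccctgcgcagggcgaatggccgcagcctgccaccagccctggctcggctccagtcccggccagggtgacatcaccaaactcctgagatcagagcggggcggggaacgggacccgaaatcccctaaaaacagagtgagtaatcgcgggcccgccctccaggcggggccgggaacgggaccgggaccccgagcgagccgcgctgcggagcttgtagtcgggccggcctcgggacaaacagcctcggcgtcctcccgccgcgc
In Nfkb2 the longer run of capitals holds 3 overlapping matches, and the matches began 39 and 38 bases before the start, with a further one 11 bases before it. The other RefSeq starts of Nfkb2 had matches as well, among them GGGACTTTCC. In Nfkbia the match GGGAATTTCC, on the opposite strand, began 29 bases before the start, and in Bcl3 the match GGGACTTCCC also on the opposite strand, began 2 bases after the start. Nfkbie held GGGGGATTCC and Tnfaip3 held GGGGATTTCC and GGGACACCCC.

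All 8 arrays shared a slide and a scan. Replicates correlated at 0.9765 to 0.9968 over the tested genes, the lowest being those of Foxp3-KO preTreg, which also lay apart on the first principal component. The 8 defining T cell markers were well above background on every array, and the 7 defining Treg markers were higher in each of the other groups than in WT Tconv. The probes of the targeted genes do not check the deletions, because the sources do not say which part of each gene was removed. They read 3.72 and 3.87 for Nr4a2 in Nr4a-TKO preTreg, against -1.51 and -1.56 in WT Tconv. Both of these Nr4a-TKO preTreg arrays also read above the WT Treg arrays. Nr4a1 read 7.73 and 7.96 in Nr4a-TKO preTreg, against 6.84 and 6.83 in WT Tconv and 7.28 and 7.62 in WT Treg. Nr4a3 read -0.42 and -0.12, against -1.53 and -1.57 in WT Tconv and -0.36 and 1.01 in WT Treg. Foxp3 read 1.97 and 1.74 in Foxp3-KO preTreg, above WT Tconv (-3.40 and -3.79) and below WT Treg (5.0 and 4.72). Levels here are log2 intensities relative to the 75th percentile of the array, so they compare arrays for 1 probe and do not compare genes. WT Tconv and Nr4a-TKO preTreg lay in row 1 of the slide and the other 2 groups in row 2, so outside the comparisons made within a row, row and group cannot be told apart.

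Against conventional cells, the NF-kB genes were higher in regulatory T cells and in both kinds of precursor. A gene was tested if some group had its probe well above background on both arrays, which held for 9 of the 10 members and for 13498 genes in all. In WT Treg 8 of the 9 were higher than in WT Tconv and 0 lower, where 13.8% of the tested genes were called higher and 21.5% lower at an adjusted p under 0.05. In Nr4a-TKO preTreg 9 of 9 were higher than in WT Tconv, against 21.4% of tested genes higher and 26.8% lower. In Foxp3-KO preTreg 8 of 9 were higher than in WT Tconv, against 10.4% higher and 14.3% lower. The median difference over the 9 members was 1.0, 0.98 and 0.80 on the log2 scale in these 3 comparisons, which share the WT Tconv arrays, beside medians of -0.09, -0.10 and -0.10 over the tested genes. On all 6 of the other arrays 8 of the 9 members read above both WT Tconv arrays, as did 14.6% of the tested genes. The member left out of each count of 8 was Rela. No member called in these comparisons turned its sign under another scaling of the arrays, but the uncalled differences of Rela did, to -0.09 in WT Treg with median scaling and 0.01 in Foxp3-KO preTreg with quantile normalization. A lower amount of RNA per cell and fewer cells that express a gene cannot be told apart in these samples.

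**Figure D1:**
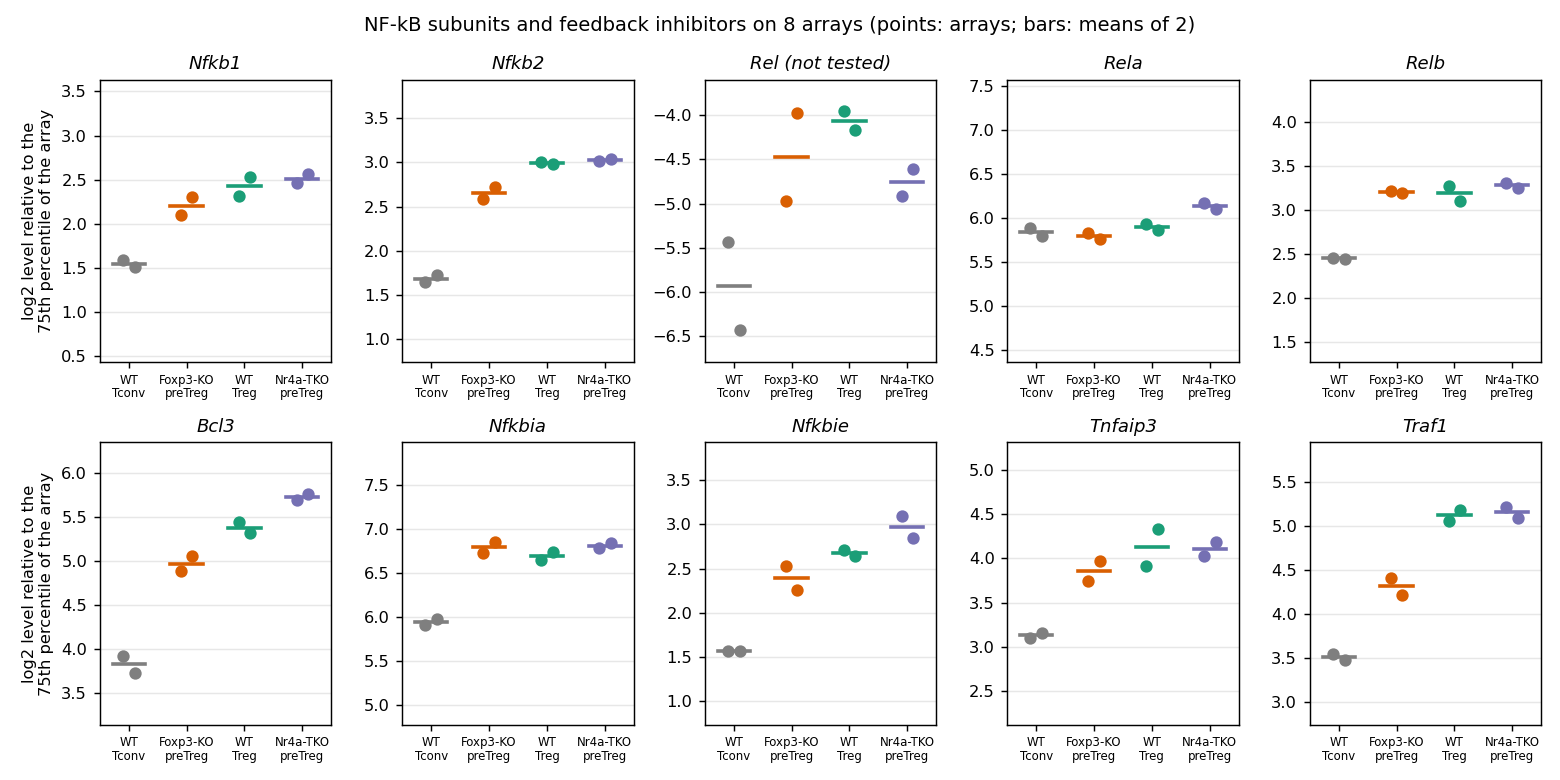
Log2 level of each of the 10 genes relative to the 75th percentile of the array (y axis, the same span in each panel) in the 4 groups; points are arrays and bars are means of 2. The 2 WT Tconv arrays lie below the other 6 for 8 of the 9 tested genes, Rela lies within a narrow band, and Rel, which was not tested, lies near background.

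Among the subunits, Nfkb1 encodes the precursor of the small subunit that pairs with RelA. It read 1.58 and 1.51 in WT Tconv, 2.10 and 2.31 in Foxp3-KO preTreg, 2.32 and 2.54 in WT Treg and 2.46 and 2.56 in Nr4a-TKO preTreg. The WT Tconv arrays were the lowest, and the WT Treg and Nr4a-TKO preTreg arrays overlapped. The difference from WT Tconv was 0.88 ± 0.11 (SE) in WT Treg (1.84-fold, adjusted p = 0.0044), 0.97 ± 0.11 in Nr4a-TKO preTreg (1.95-fold, adjusted p = 0.00246) and 0.66 ± 0.11 in Foxp3-KO preTreg (1.58-fold, adjusted p = 0.0159). A second, dimmer probe of Nfkb1 gave 0.74, 0.85 and 0.77. The probes thus differed in where they put Foxp3-KO preTreg beside WT Treg, at -0.22 ± 0.12 on the brighter and 0.03 ± 0.08 on the dimmer probe, when each probe was tested on its own.

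Nfkb2 encodes the precursor used in the alternative pathway, which is processed after signals from certain TNF family receptors. Its level was 1.64 and 1.72 in WT Tconv, 2.58 and 2.73 in Foxp3-KO preTreg, 3.0 and 2.98 in WT Treg and 3.02 and 3.03 in Nr4a-TKO preTreg. The groups did not overlap, although WT Treg and Nr4a-TKO preTreg differed by little. Against WT Tconv, Nfkb2 was 2.48-fold higher in WT Treg (1.31 ± 0.08, adjusted p = 0.000462) and 2.54-fold higher in Nr4a-TKO preTreg (1.34 ± 0.08, adjusted p = 0.000407). In Foxp3-KO preTreg it was 1.96-fold higher (0.97 ± 0.08, adjusted p = 0.00207).

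Relb encodes the usual partner of the processed Nfkb2 product. It stood at 2.46 and 2.45 in WT Tconv, 3.21 and 3.19 in Foxp3-KO preTreg, 3.27 and 3.10 in WT Treg and 3.30 and 3.25 in Nr4a-TKO preTreg. The last 3 groups lay close together, all above WT Tconv. The rise over WT Tconv was 0.73 ± 0.08 in WT Treg (adjusted p = 0.00263), 0.82 ± 0.08 in Nr4a-TKO preTreg (adjusted p = 0.00143) and 0.75 ± 0.08 in Foxp3-KO preTreg (adjusted p = 0.00483). Its second probe gave 0.74, 0.84 and 0.76.

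Rela, which encodes the main activating subunit, changed least. Its level was 5.89 and 5.80 in WT Tconv, 5.83 and 5.77 in Foxp3-KO preTreg, 5.93 and 5.87 in WT Treg and 6.17 and 6.10 in Nr4a-TKO preTreg. The Nr4a-TKO preTreg arrays were the highest, and the other 3 groups spanned 5.77 to 5.93. Against WT Tconv the difference was 0.29 ± 0.07 in Nr4a-TKO preTreg (1.22-fold, adjusted p = 0.0237). This call was lost with median scaling (0.21, adjusted p = 0.106), without a filter on dim probes (0.29, adjusted p = 0.0605) and without either array of the 2 groups compared (0.25 to 0.33, adjusted p from 0.053 to 0.137). The differences in WT Treg (0.05, 95% interval -0.13 to 0.24, adjusted p = 0.597) and in Foxp3-KO preTreg (-0.05, interval -0.23 to 0.13, adjusted p = 0.649) missed the threshold.

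Rel, which encodes c-Rel, could not be tested. Its sole probe was well above background on 1 array, the second of Foxp3-KO preTreg. It read -5.43 and -6.44 in WT Tconv, -3.95 and -4.17 in WT Treg, -4.92 and -4.60 in Nr4a-TKO preTreg and -4.98 and -3.98 in Foxp3-KO preTreg. The WT Tconv arrays were the lowest, but apart from that 1 array these values lie at the level of the background and set only a bound.

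Among the IkB family genes, Bcl3 encodes a nuclear member that binds dimers of the small subunits and can activate as well as repress. Its level was 3.93 and 3.73 in WT Tconv, 4.89 and 5.06 in Foxp3-KO preTreg, 5.44 and 5.32 in WT Treg and 5.69 and 5.76 in Nr4a-TKO preTreg. The 4 groups did not overlap. It had the largest difference of the members between Nr4a-TKO preTreg and WT Tconv, 1.90 ± 0.11 (3.72-fold, adjusted p = 0.000394), and was also higher in WT Treg (1.55 ± 0.11, 2.93-fold, adjusted p = 0.000679) and Foxp3-KO preTreg (1.14 ± 0.11, 2.21-fold, adjusted p = 0.00324).

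Nfkbia encodes IkB-alpha, the inhibitor that is degraded when NF-kB is released and is then rebuilt as an NF-kB target. It read 5.91 and 5.97 in WT Tconv, 6.73 and 6.85 in Foxp3-KO preTreg, 6.65 and 6.73 in WT Treg and 6.78 and 6.84 in Nr4a-TKO preTreg. WT Tconv stood apart, and the others fell within 6.65 to 6.85. The difference from WT Tconv was 0.75 ± 0.08 in WT Treg (adjusted p = 0.0024), 0.87 ± 0.08 in Nr4a-TKO preTreg (adjusted p = 0.00123) and 0.85 ± 0.08 in Foxp3-KO preTreg (adjusted p = 0.00324).

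Nfkbie encodes IkB-epsilon, another cytoplasmic inhibitor. It stood at 1.57 and 1.56 in WT Tconv, 2.52 and 2.26 in Foxp3-KO preTreg, 2.71 and 2.64 in WT Treg and 3.10 and 2.85 in Nr4a-TKO preTreg. The groups did not overlap, with WT Tconv lowest and Nr4a-TKO preTreg highest. It was 2.16-fold higher in WT Treg than in WT Tconv (1.11 ± 0.13, adjusted p = 0.00294), 2.65-fold higher in Nr4a-TKO preTreg (1.41 ± 0.13, adjusted p = 0.00119) and 1.77-fold higher in Foxp3-KO preTreg (0.82 ± 0.13, adjusted p = 0.0119).

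Tnfaip3 encodes a ubiquitin-editing enzyme that shuts off the signal to the IKK kinases. It read 3.10 and 3.16 in WT Tconv, 3.74 and 3.98 in Foxp3-KO preTreg, 3.92 and 4.33 in WT Treg and 4.02 and 4.18 in Nr4a-TKO preTreg. It had the widest replicate gap of the tested members, 0.42 between the WT Treg arrays, which overlapped both precursor groups. The Foxp3-KO preTreg arrays lay below those of Nr4a-TKO preTreg. Against WT Tconv the difference was 1.0 ± 0.16 in WT Treg (adjusted p = 0.00857). It was 1.97-fold higher in Nr4a-TKO preTreg (0.98 ± 0.16, adjusted p = 0.00671) and 1.66-fold higher in Foxp3-KO preTreg (0.73 ± 0.16, adjusted p = 0.0298). Without either WT Tconv array the WT Treg call was lost (0.97 and 1.03, adjusted p = 0.0589 and 0.0528). The Foxp3-KO preTreg call was lost without its second array (0.61, adjusted p = 0.0734) and without a filter on dim probes (0.73, adjusted p = 0.0566), as well as without either WT Tconv array.

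Traf1 encodes an adaptor of TNF family receptors that is itself a known NF-kB target. Its level was 3.55 and 3.47 in WT Tconv, 4.40 and 4.22 in Foxp3-KO preTreg, 5.05 and 5.18 in WT Treg and 5.22 and 5.08 in Nr4a-TKO preTreg. The Foxp3-KO preTreg arrays lay midway, clear of the groups on both sides, and the last 2 groups overlapped. Against WT Tconv it was 3.05-fold higher in WT Treg (1.61 ± 0.10, adjusted p = 0.000547), 3.12-fold higher in Nr4a-TKO preTreg (1.64 ± 0.10, adjusted p = 0.000479) and 1.74-fold higher in Foxp3-KO preTreg (0.80 ± 0.10, adjusted p = 0.00764).

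The calls in Foxp3-KO preTreg depended on the WT Tconv arrays. Without either of them 3 of the 8 remained past the threshold, Nfkb2, Nfkbia and Bcl3, and the differences of the 5 that did not ranged from 0.62 to 0.84 with adjusted p of 0.0504 to 0.15. With a minimum of 2-fold added to the threshold, 4 members were called higher in WT Treg, 4 in Nr4a-TKO preTreg and 1, Bcl3, in Foxp3-KO preTreg. In the same order, 974, 1789 and 821 of the 13498 tested genes were called higher with that minimum. Tnfaip3 in WT Treg lay just under that minimum.

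**Figure D2:**
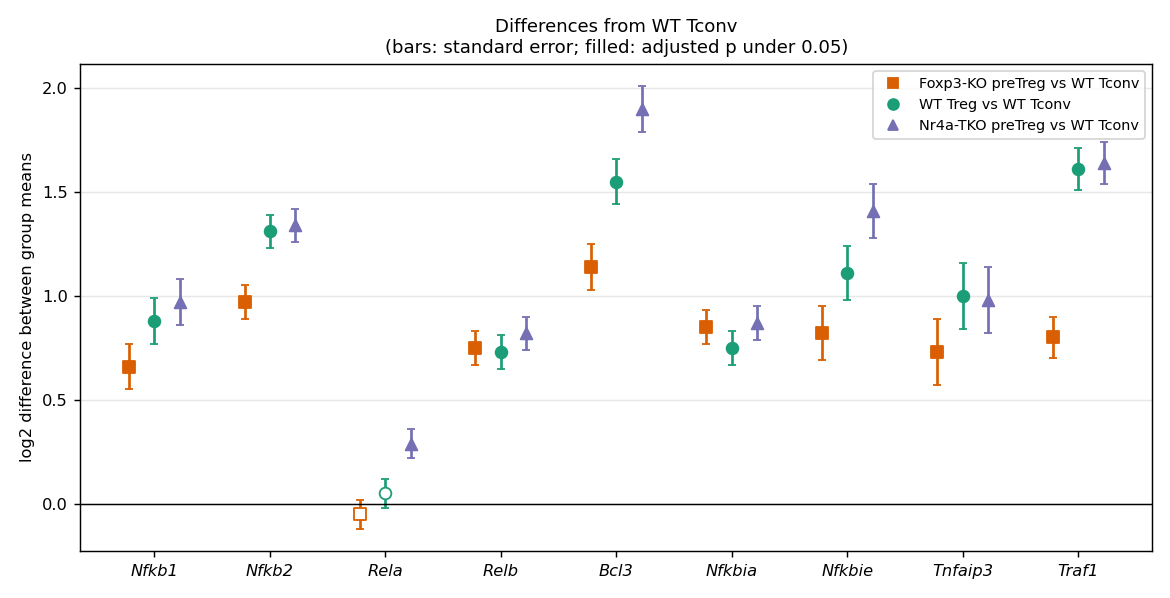
Log2 difference from WT Tconv (y axis) of the 9 tested genes (x axis) in the 3 other groups, with standard errors; filled symbols passed an adjusted p of 0.05. The points of 8 genes lie between 0.66 and 1.90, and those of Rela between -0.05 and 0.29.

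Set against mature regulatory T cells, the precursors labelled Nr4a-TKO showed 0 of 9 members past the threshold by limma, where 19.4% of tested genes were called higher and 15.9% lower. At an unadjusted p under 0.05 stood 2 of 9 members, and 6450 of the 13498 tested genes. The median difference of the members was 0.09, beside 0.01 over the tested genes. The 2 nearest the threshold were Bcl3 (0.35, 95% interval 0.08 to 0.61, adjusted p = 0.0542) and Rela (0.24, interval 0.05 to 0.42, adjusted p = 0.0546). Both passed with an intensity trend in the prior (adjusted p = 0.0237 and 0.0188) and with probes above background on all 8 arrays (0.041 and 0.0464), and Bcl3 also with normexp correction (0.0318) and without either Foxp3-KO preTreg array (0.0451). For Nfkb2 the difference was 0.03 (interval -0.16 to 0.23) and for Traf1 0.03 (interval -0.22 to 0.29). For Tnfaip3 the interval was wider, -0.43 to 0.38.

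Foxp3-KO preTreg and WT Treg differed in 1 member. Traf1 was lower in the precursors by 0.81 on the log2 scale (-0.81 ± 0.10, a ratio of 0.572, adjusted p = 0.017), in a comparison where 3.48% of tested genes were called higher and 2.93% lower. Both groups lay in the same row of the slide. This call was lost without either WT Tconv array (adjusted p = 0.0576 in both cases), without either WT Treg array (0.0559 and 0.0963) and with a fit of those 2 groups alone (0.097), while the difference stayed between -0.87 and -0.74. Nfkb2 (-0.34, interval -0.53 to -0.14, adjusted p = 0.0671) and Bcl3 (-0.41, interval -0.68 to -0.14, adjusted p = 0.0911) came next. Relb (0.01, interval -0.19 to 0.21) and Nfkbia (0.10, interval -0.10 to 0.30) had differences of the other sign. The median of the members was -0.27, beside 0.00 over the tested genes.

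The 2 precursor groups differed from each other in more members. They also differed in genotype, sort gate and row of the slide, which cannot be told apart. In Nr4a-TKO preTreg 5 of 9 were higher than in Foxp3-KO preTreg and 0 lower, against 18% of tested genes higher and 15.7% lower. These were Traf1 (0.84 ± 0.10, adjusted p = 0.00454), Bcl3 (0.75 ± 0.11, adjusted p = 0.00694), Nfkbie (0.58 ± 0.13, adjusted p = 0.0212), Nfkb2 (0.37 ± 0.08, adjusted p = 0.0193) and Rela (0.34 ± 0.07, adjusted p = 0.0211). Leaving out single arrays left 2 to 5 of the calls, and a fit of the 2 groups alone left 2. Traf1 and Bcl3 were called in each of these. The members not called were Nfkb1 (0.31, interval 0.02 to 0.59), Tnfaip3 (0.24, interval -0.16 to 0.65), Relb (0.08, interval -0.12 to 0.28) and Nfkbia (0.02, interval -0.18 to 0.22). The median difference was 0.34, beside 0.02 over the tested genes.

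**Figure D3:**
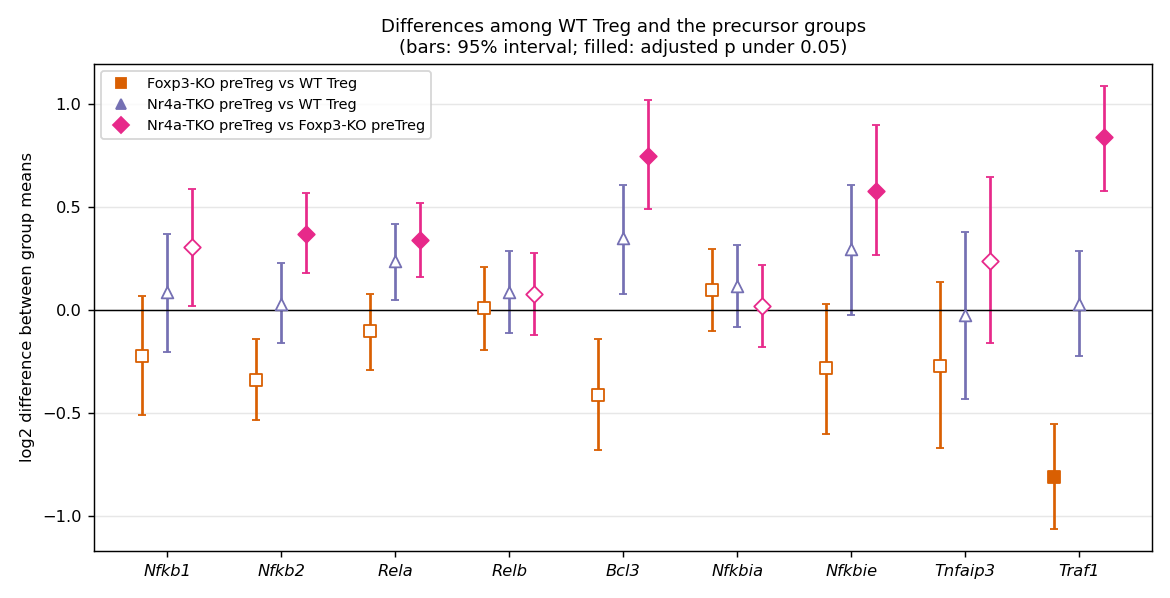
Log2 differences (y axis) of the 9 tested genes among WT Treg and the precursor groups, with 95% intervals; filled symbols passed an adjusted p of 0.05. Traf1 is set apart in Foxp3-KO preTreg, at -0.81 against WT Treg and 0.84 below Nr4a-TKO preTreg, while Relb and Nfkbia lie near 0 in all 3 comparisons.

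In the order of the group means, WT Tconv was lowest for 8 of the 9 tested members, Rela being lowest in Foxp3-KO preTreg. Nr4a-TKO preTreg was highest for 8, Tnfaip3 being highest in WT Treg by 0.02. Of the 3 upper groups, Foxp3-KO preTreg was lowest for 7 members, and WT Treg for Relb and Nfkbia. Of the 27 steps between neighbouring groups in these orders, 9 passed the threshold. They were the step up from WT Tconv for each member except Rela, and the step from Foxp3-KO preTreg to WT Treg for Traf1. Each tested member correlated with the mean of the others across the 8 arrays at 0.92 to 0.99, apart from Rela at 0.55. With only 4 groups behind the 8 points, these correlations describe the group means.

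Genes outside the members with the pattern most like theirs were found by the correlation with the mean centred level of the 9 members over the 8 arrays. The 6 highest were Pou2f2 (0.9963), Camk2n1 (0.9949), Cish (0.9922), Rgs1 (0.9910), Il2ra (0.9907) and Rab39b (0.9904). Pou2f2 read -2.42 and -2.71 in WT Tconv, 0.33 and 0.17 in Foxp3-KO preTreg, 1.33 and 1.45 in WT Treg and 1.71 and 1.51 in Nr4a-TKO preTreg, in the same order as Bcl3. Il2ra encodes CD25, on which the cells were sorted, and read -1.58 and -1.79, 4.24 and 3.73, 5.89 and 5.80, and 6.2 and 5.69 in those groups.

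Markers of other cells and of handling moved with the groups as well. The summed linear level of 10 B cell markers was 2.63 to 2.8 in WT Tconv, 4.66 to 6.43 in WT Treg, 5.65 to 22.6 in Foxp3-KO preTreg and 18.7 to 74.3 in Nr4a-TKO preTreg. Of 9 tested B cell markers, 0 were higher in WT Treg than in WT Tconv, 2 in Foxp3-KO preTreg and 8 in Nr4a-TKO preTreg. Cd79a, Pax5 and Ebf1 were below background in both wild-type groups. Cd79a and Ebf1 passed the filter only through Nr4a-TKO preTreg, so their calls as higher in that group are no independent support. The 14 myeloid markers other than Siglech and Itgam, a choice made after seeing that those 2 made up most of the sum, summed to 5.82 on both WT Tconv arrays, 9.02 to 23.9 in WT Treg, 22.1 to 81.8 in Foxp3-KO preTreg and 49.9 to 91.3 in Nr4a-TKO preTreg. With those 2, the 16 markers summed to 418 to 438 in WT Tconv and 409 to 419 in WT Treg. The whole sum was 385 to 466 in Foxp3-KO preTreg and 408 to 455 in Nr4a-TKO preTreg, so these ranges overlapped. Of 15 tested myeloid markers in the whole list, 4, 7 and 12 were higher than in WT Tconv in WT Treg, Foxp3-KO preTreg and Nr4a-TKO preTreg. Of all tested genes, 13.8%, 10.4% and 21.4% were higher in the same comparisons. Itgam was lower in Nr4a-TKO preTreg than in WT Tconv and in WT Treg. The 11 handling and immediate early genes summed to 90.5 to 95.1 in WT Tconv, 96.2 to 108 in Foxp3-KO preTreg, 110 to 113 in WT Treg and 139 to 145 in Nr4a-TKO preTreg. Jund, the brightest of them on each array, weighed most in this sum. Against WT Tconv, 3 were higher and 2, Egr1 and Zfp36, lower in WT Treg. In Nr4a-TKO preTreg 7 were higher and 1, Ier2, lower, and in Foxp3-KO preTreg 3 were higher and 0 lower. Atf3, among the 7, also passed the filter only through Nr4a-TKO preTreg. Xcr1 was below background in each group, as were the stromal markers Krt8, Psmb11, Foxn1, Col3a1 and Pdgfra. Epcam, of the same stromal list, was higher than in WT Tconv in WT Treg (1.52 ± 0.37, adjusted p = 0.0265), Nr4a-TKO preTreg (2.12 ± 0.37, adjusted p = 0.00732) and Foxp3-KO preTreg (1.76 ± 0.37, adjusted p = 0.0253). Col1a1 was at least 2.03-fold higher in Nr4a-TKO preTreg than in WT Treg, and Cdh5 was lower in WT Treg and Nr4a-TKO preTreg than in WT Tconv. The 7 NK and innate-like T cell markers summed to 16 to 16.4 in WT Tconv, 1.51 to 2.56 in WT Treg and 5.5 to 6.39 in Nr4a-TKO preTreg, and to 53.9 and 6.77 on the Foxp3-KO preTreg arrays. The 8 markers of double-positive and immature thymocytes summed to 36.1 to 37.8 in WT Tconv, 31.2 to 41.2 in Foxp3-KO preTreg, 20.2 to 24.8 in WT Treg and 12 to 15 in Nr4a-TKO preTreg. Of the 8 T cell markers themselves, 7 were lower in WT Treg than in WT Tconv, 6 in Nr4a-TKO preTreg and 2 in Foxp3-KO preTreg, and 1, Cd5, was higher in WT Treg and in Foxp3-KO preTreg. Of all tested genes, 21.5%, 26.8% and 14.3% were lower in WT Treg, Nr4a-TKO preTreg and Foxp3-KO preTreg. The part of these markers in the levels of the NF-kB genes was not tested.

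**Figure D4:**
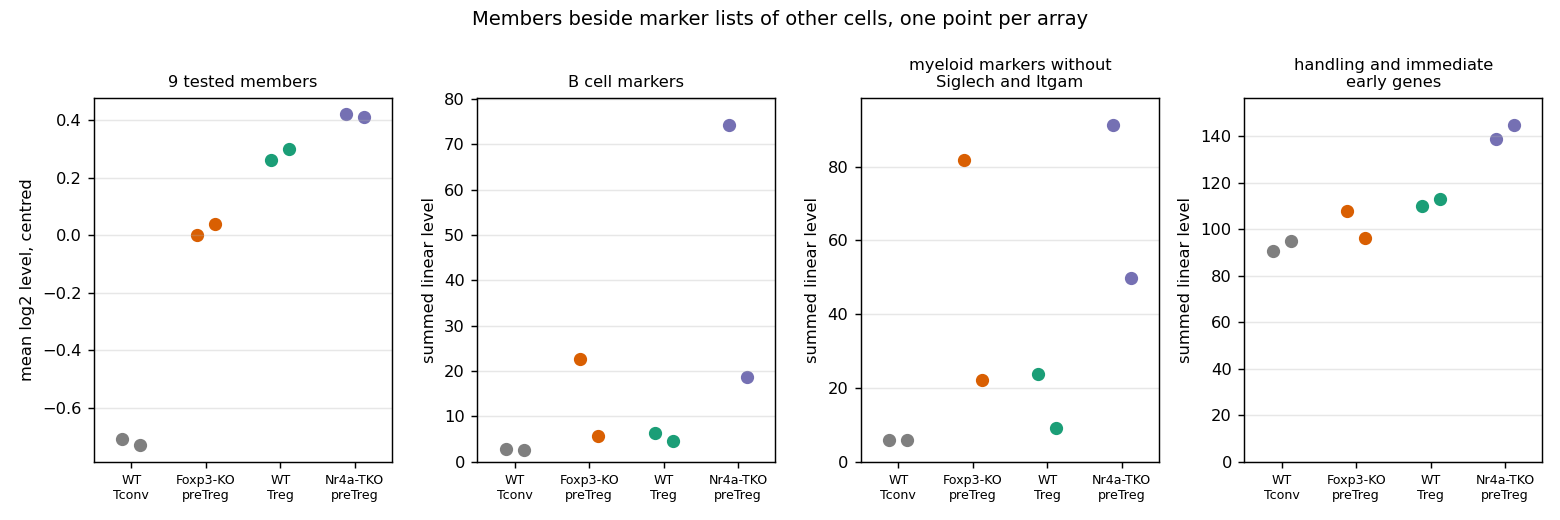
Mean centred log2 level of the 9 tested genes (first panel) and summed linear levels of B cell, myeloid and handling markers (other panels) in the 4 groups, 1 point per array. The myeloid panel leaves out Siglech and Itgam. The member means run from -0.73 in WT Tconv to 0.42 in Nr4a-TKO preTreg, and the B cell sums from 2.63 in WT Tconv to 74.3 on the first Nr4a-TKO preTreg array.

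The receptors listed as signalling to NF-kB moved in the same comparisons. Of 17 tested, 8 were higher and 2 lower in WT Treg than in WT Tconv, 11 and 1 in Nr4a-TKO preTreg, and 6 and 1 in Foxp3-KO preTreg. Over all tested genes, 13.8%, 21.4% and 10.4% were higher and 21.5%, 26.8% and 14.3% lower in these comparisons. The 8 in WT Treg include Tnfrsf8, which encodes CD30 and was below background in both groups. Tnfrsf8 and Il1r1 passed the filter only through Nr4a-TKO preTreg. Both are counted as higher in that group in each of its 3 comparisons, and these calls are no independent support. The list median was 1.89, 1.72 and 1.21, or 1.20, 1.72 and 0.83 with genes not above background set at their bound. With normexp background correction it was 0.42, 1.32 and 0.36, with 6, 11 and 6 genes higher. Tnfrsf4, which encodes OX40, read 4.65 and 4.68 in WT Tconv, 6.98 and 6.74 in Foxp3-KO preTreg, 7.85 and 7.87 in WT Treg and 7.72 and 7.49 in Nr4a-TKO preTreg. It was 9.17-fold, 7.68-fold and 4.58-fold higher than WT Tconv in WT Treg, Nr4a-TKO preTreg and Foxp3-KO preTreg (adjusted p = 0.00015, 0.000183 and 0.000585). Tnfrsf18, which encodes GITR and was part of the sort gate of Nr4a-TKO preTreg, and Tnfrsf25 were called higher in the same 3 comparisons. Tnfrsf1a, which encodes the main TNF receptor, was lower in the 3 groups, by 1.29, 1.16 and 0.95 on the log2 scale in WT Treg, Nr4a-TKO preTreg and Foxp3-KO preTreg (differences of -1.29, -1.16 and -0.95, adjusted p = 0.000618, 0.000757 and 0.00289), while Tnfrsf1b was higher by 2.55, 2.43 and 2.19. Cd28 was lower in WT Treg (-0.68 ± 0.13, adjusted p = 0.0146).

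Among the 3 upper groups, some receptors differed as well. In Foxp3-KO preTreg 0 were higher and 4 lower than in WT Treg, among them Tnfrsf4 (-1.0 ± 0.12, adjusted p = 0.0146), Tnfrsf25 (-0.82 ± 0.10, adjusted p = 0.0143) and Tnfrsf18 (-0.66 ± 0.11, adjusted p = 0.0324). The fourth, Tnfrsf8, was below background in both groups. In that comparison 3.48% of tested genes were higher and 2.93% lower. Nr4a-TKO preTreg had 5 higher and 2 lower than WT Treg, against 19.4% and 15.9% of tested genes. Il1r1, which encodes the receptor of interleukin 1, was at least 31.1-fold higher there, being not well above background in WT Treg (adjusted p = 0.00637), Ltbr, the lymphotoxin receptor, was higher by 1.84 ± 0.46 (adjusted p = 0.03), and Tnfrsf11a, which encodes RANK, was higher by 0.81 ± 0.14 (adjusted p = 0.01). Tnfrsf25 and Tnfrsf18 were lower (-0.68 ± 0.10 and -0.52 ± 0.11, adjusted p = 0.00615 and 0.0197). Against Foxp3-KO preTreg, Nr4a-TKO preTreg had 4 receptors higher and 1, Cd27, lower (-0.45 ± 0.13, adjusted p = 0.0412), a call lost with median scaling or normexp correction. Of all tested genes 18% were higher and 15.7% lower between these groups. Il1rl1, which encodes the receptor of interleukin 33, read 4.62 and 4.49 in Nr4a-TKO preTreg and 0.62 and -3.41 in Foxp3-KO preTreg, arrays far apart from each other. Cd40, a receptor that B cells and myeloid cells also carry, was at least 8.9-fold, 39.1-fold and 19.5-fold higher than WT Tconv in WT Treg, Nr4a-TKO preTreg and Foxp3-KO preTreg. Ltbr, well above background on 5 of the 8 arrays, read -5.31 and -5.43 in WT Tconv and -2.92 and -4.04 in WT Treg. In Foxp3-KO preTreg it read -1.95 and -2.87, and in Nr4a-TKO preTreg -1.41 and -1.88. B cell and myeloid markers moved with Cd40 and Ltbr, and their part in the level of either gene was not tested.

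The kinases and adaptors upstream of NF-kB went both ways. Of 28 tested, 4 were higher and 3 lower in WT Treg than in WT Tconv, 5 and 6 in Nr4a-TKO preTreg, and 4 and 2 in Foxp3-KO preTreg, with medians of 0.06, 0.01 and -0.01. Among all tested genes, 13.8%, 21.4% and 10.4% were higher and 21.5%, 26.8% and 14.3% lower. The medians over those genes were -0.09, -0.10 and -0.10. With median scaling 2 of the 28 were higher and 4 lower in WT Treg, and likewise in Foxp3-KO preTreg. Map3k8 and Birc3 were higher in all 3 comparisons. Map3k8 encodes a kinase that is itself bound by the Nfkb1 precursor, and its level was -1.01 and -1.22 in WT Tconv, 0.20 and -0.15 in Foxp3-KO preTreg, 0.64 and 0.42 in WT Treg and 0.36 and 0.05 in Nr4a-TKO preTreg. Tab1, an activator of the kinase encoded by Map3k7, was lower in the 3 groups (-0.51 ± 0.09, -0.99 ± 0.09 and -0.50 ± 0.09, adjusted p = 0.0122, 0.00137 and 0.0199). Birc2, a ubiquitin ligase like Birc3, was higher in WT Treg and Foxp3-KO preTreg (0.51 and 0.52, adjusted p = 0.0124 and 0.0184).

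The largest difference in this list between Nr4a-TKO preTreg and WT Treg was that of Malt1, which encodes the protease of the complex that links the T cell receptor to the IKK kinases. It read 2.81 and 2.68 in WT Tconv, 2.56 and 2.47 in Foxp3-KO preTreg, 2.28 and 2.36 in WT Treg and 4.16 and 3.93 in Nr4a-TKO preTreg. The Nr4a-TKO preTreg arrays were clear of the other 6, with differences of 1.73 ± 0.11 from WT Treg (3.31-fold, adjusted p = 0.000714), 1.30 ± 0.11 from WT Tconv (adjusted p = 0.000931) and 1.53 ± 0.11 from Foxp3-KO preTreg (adjusted p = 0.00112). Other genes of the list went the other way, with 2 higher and 9 lower in Nr4a-TKO preTreg than in WT Treg and 4 higher and 9 lower than in Foxp3-KO preTreg. Over all tested genes, 19.4% and 18% were higher and 15.9% and 15.7% lower in these comparisons. Prkcq, the kinase that acts just before that complex, was lower than in WT Treg by 0.80 (-0.80 ± 0.13, adjusted p = 0.00927). Birc3, which encodes a ubiquitin ligase of TNF receptor complexes, was lower by 0.81 (-0.81 ± 0.14, adjusted p = 0.0111) and Traf6 by 0.53 (-0.53 ± 0.08, adjusted p = 0.00836). Ikbke, which encodes a kinase related to the IKK kinases, was lower by 1.26 (-1.26 ± 0.23, adjusted p = 0.0118), and Birc2 by 0.49 (-0.49 ± 0.10, adjusted p = 0.0144). Btrc, which encodes part of the ligase that marks IkB proteins for degradation, was lower in Nr4a-TKO preTreg than in each other group (-0.72, -0.67 and -0.85 against WT Tconv, WT Treg and Foxp3-KO preTreg). Tab2 was higher than in each other group (0.33, 0.26 and 0.38 in that order). Ripk1, a kinase of the TNF receptor complex, was higher than in WT Tconv and Foxp3-KO preTreg (0.37 in both), and the adaptor gene Tradd was higher than in Foxp3-KO preTreg (0.43 ± 0.07, adjusted p = 0.0114). Between Foxp3-KO preTreg and WT Treg limma called 0 of the 28, where 3.48% of tested genes were higher and 2.93% lower. An unadjusted p under 0.05 was found for 4 of the 28, and for 3426 of the 13498 tested genes.

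The inhibitors outside the members did not share 1 pattern. Of 18 tested, 8 were higher and 2 lower in WT Treg than in WT Tconv, 8 and 0 in Nr4a-TKO preTreg, and 6 and 1 in Foxp3-KO preTreg, with medians of 0.22, 0.19 and 0.11. The shares over all tested genes were 13.8%, 21.4% and 10.4% higher and 21.5%, 26.8% and 14.3% lower. With median scaling the count in Foxp3-KO preTreg was 3 higher and 3 lower. Nfkbiz, which encodes the nuclear inhibitor IkB-zeta, read 0.16 and 0.26 in WT Tconv, 1.41 and 1.29 in Foxp3-KO preTreg, 1.46 and 1.77 in WT Treg and 0.95 and 0.89 in Nr4a-TKO preTreg. Nr4a-TKO preTreg thus lay between WT Tconv and the other groups, and was lower than WT Treg (-0.70 ± 0.12, adjusted p = 0.0114). Tnip1 and Tnip2 encode partners of the Tnfaip3 protein. Tnip1 read highest in WT Treg, at 6.43 and 6.38, against 5.61 and 5.55 in WT Tconv, 5.94 and 6.01 in Foxp3-KO preTreg and 5.84 and 5.81 in Nr4a-TKO preTreg, and both precursor groups were lower than WT Treg (-0.43 ± 0.07 and -0.58 ± 0.07, adjusted p = 0.0279 and 0.00332). Tnip2 had another order, at 2.61 and 2.63 in WT Tconv, 2.01 and 2.19 in Foxp3-KO preTreg, 2.09 and 1.99 in WT Treg and 3.22 and 3.08 in Nr4a-TKO preTreg. It was thus highest in Nr4a-TKO preTreg (1.11 ± 0.10 above WT Treg, adjusted p = 0.00155) and lower in WT Treg than in WT Tconv (-0.58 ± 0.10, adjusted p = 0.00875). N4bp1 was higher in Nr4a-TKO preTreg than in each other group (1.45, 0.74 and 1.14 against WT Tconv, WT Treg and Foxp3-KO preTreg) and in WT Treg than in WT Tconv (0.71). Rnf11 (0.73, 0.90 and 0.45) and Zc3h12a (0.58, 0.45 and 0.48), which encodes an RNA-degrading enzyme, were higher than WT Tconv in WT Treg, Nr4a-TKO preTreg and Foxp3-KO preTreg. Tnip3 was at least 3.27-fold, 4.16-fold and 3.56-fold higher in the same order. Nfkbib, which encodes IkB-beta, was higher in WT Treg and Nr4a-TKO preTreg than in WT Tconv (0.44 and 0.64), and in Nr4a-TKO preTreg it was also higher than in Foxp3-KO preTreg (0.36), as was Nfkbil1 (0.46). Commd1, whose product promotes the breakdown of RelA, was lower in WT Treg than in WT Tconv (-0.36 ± 0.07, adjusted p = 0.0165).

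Among known NF-kB target genes outside the members, more were higher than lower in Nr4a-TKO preTreg in each of its 3 comparisons. Of 25 listed, 23 had a named probe and 21 were tested. Against WT Tconv 8 were higher and 1 lower in WT Treg, 14 and 1 in Nr4a-TKO preTreg, and 7 and 1 in Foxp3-KO preTreg, with medians of 0.21, 1.56 and 0.23. Over all tested genes, 13.8%, 21.4% and 10.4% were higher and 21.5%, 26.8% and 14.3% lower. With median scaling the Foxp3-KO preTreg count was 7 higher and 4 lower. Nr4a-TKO preTreg had 9 higher and 1 lower than WT Treg (median 0.59) and 10 higher and 2 lower than Foxp3-KO preTreg (median 0.68). The shares over all tested genes were 19.4% and 18% higher and 15.9% and 15.7% lower. Irf4, which encodes a transcription factor of activated lymphocytes, read 2.26 and 2.29 in WT Tconv, 2.14 and 2.09 in Foxp3-KO preTreg, 2.45 and 2.52 in WT Treg and 3.91 and 3.83 in Nr4a-TKO preTreg. Its difference between Nr4a-TKO preTreg and WT Treg was 1.39 ± 0.07 (2.62-fold, adjusted p = 0.000526), and in Foxp3-KO preTreg it was lower than in WT Treg (-0.37 ± 0.07, adjusted p = 0.0428).

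Tnf, Gadd45b, Cd44 and Ier3 were also higher in Nr4a-TKO preTreg than in WT Treg. Tnf encodes the cytokine itself, and read 2.70 and 2.51 there against 1.21 and 1.29 in WT Treg (1.35 ± 0.18, adjusted p = 0.00509). Gadd45b, a stress-response gene, was 1.5 ± 0.16 higher (adjusted p = 0.00279), and Ier3 at least 30.1-fold higher, being not well above background in WT Treg (adjusted p = 0.00279). In the same comparison 6 of 11 handling and immediate early genes were higher, as were 7 of 9 B cell markers, against 19.4% of tested genes. The part of these markers in these levels was not tested. Ccr7, which encodes the receptor that guides T cells to lymph nodes, went the other way (-1.52 ± 0.24, adjusted p = 0.00837). Cd83, by contrast, followed the members: it read -1.99 and -2.16 in WT Tconv, 3.84 and 2.99 in Foxp3-KO preTreg, 4.82 and 4.83 in WT Treg and 4.83 and 4.35 in Nr4a-TKO preTreg. Lta, which encodes lymphotoxin-alpha, was higher than in WT Tconv in the 3 groups, by 1.93, 1.56 and 1.64. Bcl2a1d, whose near-identical copies can share its probe, was higher in the same 3 comparisons (1.29, 1.93 and 1.0). Csf2, which encodes a growth factor of myeloid cells, was at least 10.3-fold lower in WT Treg than in WT Tconv (adjusted p = 0.0066). The adhesion molecule genes Icam1 (1.21, 1.80 and 0.66) and Vcam1 (at least 36.8-fold, 83.7-fold and 63.6-fold) were higher than WT Tconv in WT Treg, Nr4a-TKO preTreg and Foxp3-KO preTreg. Vcam1 arrays lay far apart in WT Treg (1.94 and -0.36) and Foxp3-KO preTreg (3.08 and 0.08). The myeloid sums without Siglech and Itgam differed between the same arrays (23.9 and 9.02, 81.8 and 22.1). The part of myeloid cells in the Vcam1 level was not tested. Icam1 was also higher in Nr4a-TKO preTreg than in WT Treg (0.59) and Foxp3-KO preTreg (1.14). Ltb, which encodes lymphotoxin-beta, was higher in WT Treg than in WT Tconv (0.75 ± 0.09, adjusted p = 0.00381) and lower in Foxp3-KO preTreg than in WT Treg (-0.53 ± 0.09, adjusted p = 0.0369). The cell cycle gene Ccnd2 was lower in Foxp3-KO preTreg than in WT Tconv (-0.31 ± 0.09, adjusted p = 0.0495). Irf1, a regulator of interferon responses, was lower in Nr4a-TKO preTreg than in Foxp3-KO preTreg (-0.39 ± 0.11, adjusted p = 0.0459).

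**Figure D5:**
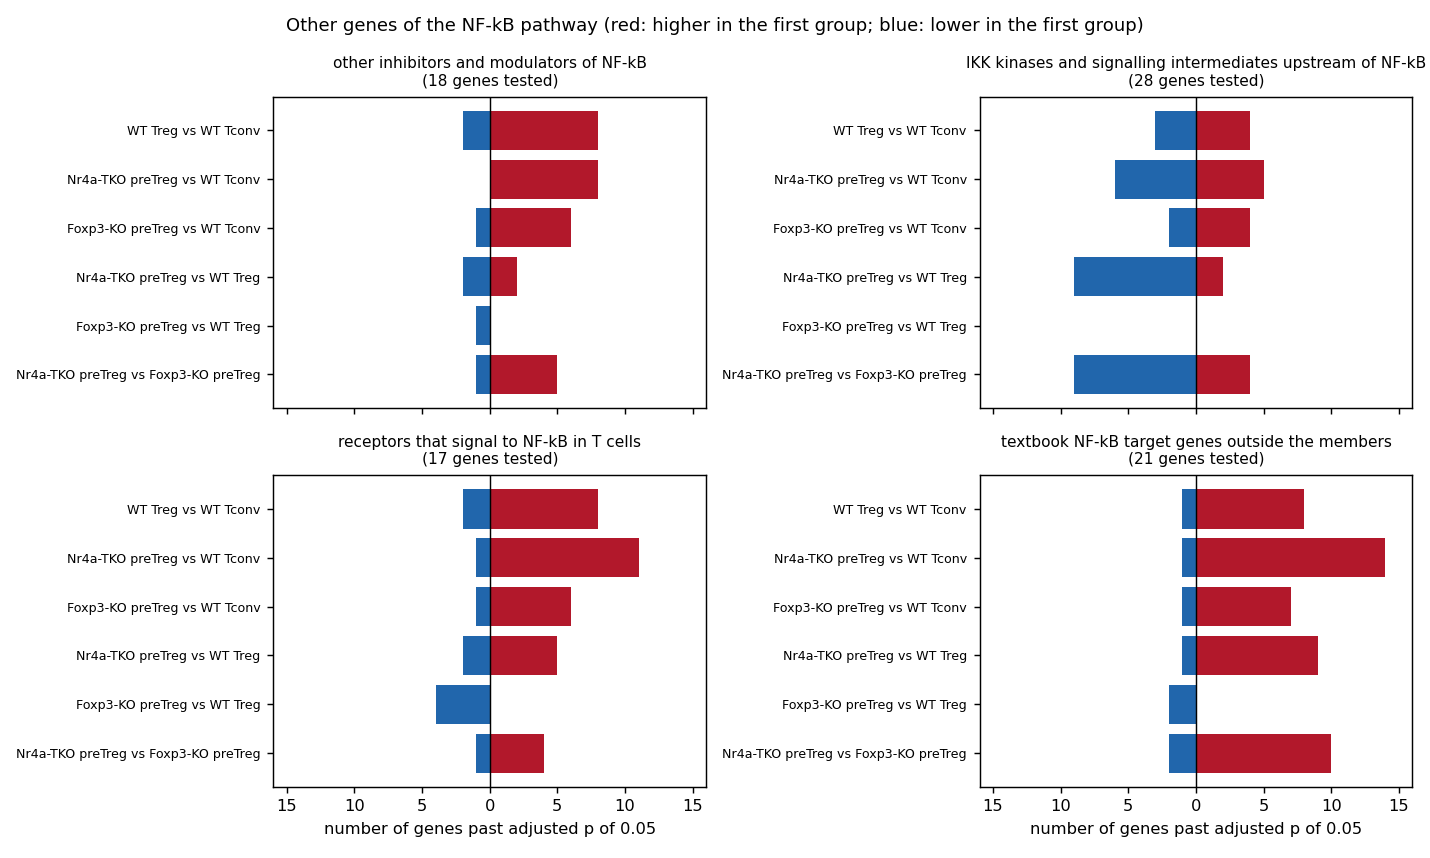
Number of genes past an adjusted p of 0.05 (x axis) in 4 lists of other NF-kB pathway genes for the 6 comparisons, with genes higher in the first-named group to the right and lower to the left. The target genes reach 14 higher in Nr4a-TKO preTreg against WT Tconv, and the upstream kinases and adaptors reach 9 lower in Nr4a-TKO preTreg against WT Treg.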

How the data were processed

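The data are 8 one-colour Agilent arrays, labelled with Cy3 from 10 ng of RNA per the labels. The authors deposited scanner files of Feature Extraction 10.7.1.1, whose processed intensity of each spot was background-subtracted and not normalized between arrays, per the file headers. The authors also deposited a matrix of intensity, which was a constant multiple of the scanner values on each array. It was used as an alternative. Control and outlier spots were left out, spots of a probe were averaged as log2, and each array's 75th percentile over probes was taken off. Probes were named through RefSeq accessions (28026 of 55681), and the brightest probe of a gene was used. Coordinates of probes are not given, because the array and the reference used different genome builds.

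One model held the 4 groups (lmFit and eBayes without a trend, limma 3.58.1, R 4.3.3), with Benjamini-Hochberg adjustment over 13498 genes in each of 6 comparisons. Residual degrees of freedom were 4 and prior ones 1.59, so the number of arrays, 2 a group, limits the precision. The scripts were tested on simulated data. A probe not well above background on both arrays of a group has only a bound there, and its fold is written as at least the value against the background level, with the adjusted p of the fit. The 10 members, the pathway and marker lists, the tests and the rule for named genes were chosen with earlier results of these data known. By that rule, all members are named, and from each list and comparison up to 6 called genes of smallest adjusted p, those called against the majority, and the 6 genes most like the members. One gene that the rule would name is not reported here. The main fit did not pair samples by replicate number, and the sources do not say what the numbers share. Alternatives were other scalings and background corrections, filters, probe rules, priors, a 2-fold minimum, a fit of the 2 groups compared, and single arrays left out.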

Additional observations from a re-analysis of the deposited data

How the results depend on the processing

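Of the member values recomputed under the alternatives, 963 kept their direction and side of the threshold, 39 kept the direction and lost the threshold, 9 passed it newly and 15 changed sign. The 15 were small differences that missed the threshold in both settings. Median scaling turned Rela in WT Treg against WT Tconv (-0.09) and Tnfaip3 in Nr4a-TKO preTreg against WT Treg (0.05). Quantile normalization turned Rela in Foxp3-KO preTreg against WT Tconv (0.01), Nfkb2 (-0.04) and Traf1 (-0.06) in Nr4a-TKO preTreg against WT Treg, and Nfkbia in Nr4a-TKO preTreg against Foxp3-KO preTreg (-0.01). Single arrays left out moved Nfkb1 from -0.02 to 0.20, Tnfaip3 from -0.23 to 0.19 and Traf1 from -0.03 to 0.10 in Nr4a-TKO preTreg against WT Treg, Relb from -0.07 to 0.10 in Foxp3-KO preTreg against WT Treg, and Nfkbia from -0.04 to 0.08 in Nr4a-TKO preTreg against Foxp3-KO preTreg. The counts of members called in the 6 comparisons were 8 in WT Treg against WT Tconv, 9 in Nr4a-TKO preTreg against WT Tconv, 8 in Foxp3-KO preTreg against WT Tconv, 0 in Nr4a-TKO preTreg against WT Treg, 1 in Foxp3-KO preTreg against WT Treg and 5 in Nr4a-TKO preTreg against Foxp3-KO preTreg. In that order, leaving out single arrays gave 7 to 8, 8 to 9, 3 to 8, 0 to 1, 0 to 1 and 2 to 5 members, and 1655 to 5734, 3080 to 7182, 470 to 4141, 2121 to 5837, 71 to 1342 and 2027 to 5336 genes, against 4774, 6511, 3326, 4776, 865 and 4558 with every array. The lone array of a group was then assumed to vary like the others. A 2-fold minimum left 4, 4, 1, 0, 0 and 0 members and 1630, 2626, 1087, 1760, 375 and 1615 genes.

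In Nr4a-TKO preTreg against WT Treg, 1 member was called with normexp background correction, 2 with probes above background on all 8 arrays and 2 with an intensity trend. The trend called 3 members and 1305 genes in Foxp3-KO preTreg against WT Treg. With a fit of the 2 groups compared, 0 members and 19 genes were called there, 2 members and 1101 genes in Nr4a-TKO preTreg against Foxp3-KO preTreg, and 1773 genes in Foxp3-KO preTreg against WT Tconv. No filter on dim probes gave 2146 genes in Foxp3-KO preTreg against WT Tconv, 400 against WT Treg, and 7371 in Nr4a-TKO preTreg against Foxp3-KO preTreg. Median scaling called 5027 genes in Foxp3-KO preTreg against WT Tconv. It moved the median of the tested genes from -0.10 to -0.25 there and from -0.09 to -0.23 in WT Treg against WT Tconv, and the share of calls that were higher from 42.1% to 22.5% and from 39.1% to 25.8%. In Nr4a-TKO preTreg that share went from 55% to 67.1% against WT Treg and from 53.4% to 66.7% against Foxp3-KO preTreg. The cause of these shifts was not tested.

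Deviations from the group mean of arrays with the same replicate number were correlated over the tested genes, with 2 arrays a group. Among WT Treg and the precursor groups the correlations were 0.148 to 0.259. Between WT Tconv and the other groups they were -0.0285 to -0.0105. Whether the replicate number marks a shared batch was not tested. With the number as a replicate block, the member counts were 8, 9, 8, 0, 1 and 5 and the gene counts 4483, 6210, 2937, 4487, 605 and 4149. Signal over background limits Rel, whose probe cleared it on 1 array.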
